A study of Mus musculus with 47 samples.

Results

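The inflammasome and Naip genes are 10 genes chosen by their symbols: the sensor genes Naip1, Naip2, Naip5 and Naip6 with their partner Nlrc4, the sensor gene Nlrp3, the adaptor gene Pycard, the protease gene Casp1, and the cytokine genes Il18 and Il1b. They were found as 10 of the 20456 genes counted, and they were followed through all 47 RNA-seq libraries of embryonic liver, lung and brain. In S226A liver, 4 of them differed from wild-type littermates: Naip2, Naip6 and Pycard were upregulated and Il18 was downregulated, and the call of Naip6 depended on single libraries. In S226A brain only Naip6 was called, at 12.8% of the pooled read rate of its wild-type littermates, and in S226A lung only Casp1, whose call also depended on single libraries. In Y130A embryos none of them was called in any tissue.

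An inflammasome is a protein assembly in the cytosol that is built on a sensor of microbial products or cell damage, most of all in macrophages, monocytes and neutrophils. NAIP proteins bind parts of bacterial flagella and secretion systems and recruit NLRC4, whereas NLRP3 responds to many kinds of disturbance of the cell. Both assemblies recruit caspase-1, in part through the adaptor ASC, the product of Pycard. Caspase-1 then cleaves the precursors of the cytokines IL-1β (Il1b) and IL-18 (Il18) and the pore former gasdermin D. The mouse carries several Naip paralogs side by side.

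The embryos were C57BL/6 mice at E18.5. They were homozygous for the Daxx allele S226A, which takes away binding to the histone variant H3.3, or for Y130A, which takes away binding to ATRX, or they were wild-type littermates of either. Both alleles were knocked into C57BL/6N zygotes by genome editing and crossed to C57BL/6J, and every cell of a mutant carries the allele. Each genotype and tissue gave 4 libraries, apart from 3 wild-type lungs of the Y130A litters, and each of the 8 litters gave mutant and wild-type embryos. The liver of this stage is also the main blood-forming organ, so that its RNA holds that of hepatocytes and of many blood cells. In bulk RNA, fewer cells of a type and less RNA per cell cannot be told apart.

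Library totals ranged from 15722147 to 26190403 reads in the S226A litters and from 36351738 to 54885020 in the Y130A litters. Levels are given as CPM, the reads of a gene per 1000000 reads of its library after TMM scaling. Summed marker genes of hepatocytes, lung epithelium and neurons were each highest in the labelled tissue. Transcripts of squamous epithelium stood apart in 1 wild-type liver of the S226A litters (replicate 2, 129 CPM summed over 6 marker genes) and in 1 Y130A liver (replicate 1, 90.2), against at most 3.88 in the other liver libraries, and calls in liver that change without these 2 libraries are given with both values. Calls are at an adjusted p below 0.05 from edgeR's quasi-likelihood test with Benjamini-Hochberg adjustment over the 16892 genes that passed the filter on low counts. Of the 10 genes, 9 passed it. Naip1 did not: it had at most 15 reads in any library.

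The 4 Naip genes lie in a row on the minus strand of chromosome 13 (GRCm38, GENCODE M21): Naip2 (ENSMUSG00000078945.10) at chr13:100144063-100202092, Naip5 (ENSMUSG00000071203.6) at chr13:100211739-100246323, Naip6 (ENSMUSG00000078942.10) at chr13:100281121-100317674 and Naip1 (ENSMUSG00000021640.6) at chr13:100407764-100452869. Their coding sequences were alike in all 4 genes at 85.2% of 4206 aligned bases. Naip5 and Naip6 were the most alike, with 128 differing bases of 4209 (97.0% identity), whereas the other 5 pairs were 89.5% to 91.9% identical. A stretch of 90 coding bases shows what a read can and cannot tell apart (coding bases 98 to 187 of each gene, 5′ to 3′, from the GENCODE M21 transcripts). Capitals mark the 13 positions at which the 4 genes are not all alike. The stretch after the last capital is the same in all 4 genes, so that a short read within it could come from any.
Naip1: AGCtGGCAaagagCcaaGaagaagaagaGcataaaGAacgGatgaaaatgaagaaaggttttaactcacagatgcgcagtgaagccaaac
Naip2: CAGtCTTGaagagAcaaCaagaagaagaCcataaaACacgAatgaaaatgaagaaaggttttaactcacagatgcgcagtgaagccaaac
Naip5: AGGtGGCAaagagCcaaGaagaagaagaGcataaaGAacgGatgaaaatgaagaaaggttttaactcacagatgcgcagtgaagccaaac
Naip6: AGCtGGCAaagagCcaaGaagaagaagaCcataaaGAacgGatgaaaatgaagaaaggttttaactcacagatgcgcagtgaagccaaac

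Over whole transcripts, 16.2% of the distinct 100-base windows of Naip5 also occurred in a transcript of another gene, mostly of another Naip gene. The shares of Naip6 (6.26%) and Naip2 (4.44%) were lower, and that of Naip1 lay between. At 50 bases the shares were 36.9% for Naip5, 31.5% for Naip1, 21.5% for Naip6 and 19.1% for Naip2. The length of the reads was not given in the sources used here. STAR's gene counting leaves out reads that align to several places, so that the counts of the Naip genes come from their other stretches and the share of reads each paralog lost is not known. For Pycard, 10.3% of the 100-base windows lay in Gm45205, a gene on the other strand. The counts do not say whether strand was used, so that reads of these 2 genes cannot be told apart there. Nlrp3, Casp1, Il18, Il1b and Nlrc4 shared no 100-base window with another gene.

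The promoters of Naip2 and Naip5 were related as well, in the RefSeq models on GRCm38.p6. Of 83 aligned bases just upstream of their starts, 77 were identical (92.8%), on the minus strand at chr13:100202125-100202207 and chr13:100247346-100247428. Both genes had higher values in S226A liver, where Naip2 was called and Naip5 was not. Whether their changes differ, and whether these bases play a part, was not tested. Capitals mark the 6 differing bases.
Naip2: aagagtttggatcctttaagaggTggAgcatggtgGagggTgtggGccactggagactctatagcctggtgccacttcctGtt
Naip5: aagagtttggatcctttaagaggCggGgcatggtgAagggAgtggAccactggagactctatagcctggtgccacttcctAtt

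The best local match of the Naip6 promoter with that of Naip5 covered 25 bases only. The window of Naip6 (chr13:100316617-100316866) lay inside the GENCODE span of the gene, so that RefSeq and GENCODE place its start differently. Sequence before the GENCODE start of Naip6 was not compared. The 250 bases before each start were searched on both strands for GAGGAAGT, the motif of the myeloid factor PU.1, and for the composite ETS-IRF motif and the paired IRF motif, which can overlap each other. Among the 10 genes only Pycard held an exact match, of the PU.1 letters, which begins 44 bases before its start. Of 32851 promoters, 2.44% hold these letters in the same window, 2.30% the ETS-IRF motif and 2.98% the paired IRF motif. Sites that differ from the searched letters were not counted, and binding was not tested. The last 60 bases before the start of Pycard (chr7:127993868-127993927, minus strand), with the match in capitals, read:
Pycard: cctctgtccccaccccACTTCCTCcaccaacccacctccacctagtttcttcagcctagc

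The other 6 genes lie apart from the Naip cluster and mostly from each other. Nlrc4 (ENSMUSG00000039193.8) is at chr17:74425438-74459142 on the minus strand, and Nlrp3 (ENSMUSG00000032691.14) at chr11:59541568-59566956 on the plus strand. Pycard (ENSMUSG00000030793.4) is at chr7:127989708-127993867 on the minus strand. Casp1 (ENSMUSG00000025888.5) and Il18 (ENSMUSG00000039217.13) are both on the plus strand of chromosome 9, at chr9:5298517-5307265 and chr9:50554827-50581840, and Il1b (ENSMUSG00000027398.13) is at chr2:129364570-129371139 on the minus strand.

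In wild-type embryos the medians of most of the genes were highest in liver, lower in lung and lowest in brain. Il18 and Naip1 did not follow this order, and Pycard was not shown to differ between liver and lung. Naip2, whose product is known to recognize the rod protein of bacterial secretion systems, had a median of 27.2 CPM in liver (23.3 to 37.5, n = 8), 11.3 in lung (8.72 to 13.1, n = 7) and 0.691 in brain (0.420 to 0.919, n = 8), with no overlap between tissues. Nlrc4 followed the same order, with 5.00 CPM in liver (3.99 to 8.29), 2.06 in lung (1.28 to 2.49) and 0.271 in brain (0.185 to 0.420). Il18 instead had 7.39 CPM in liver (4.45 to 10.2), 2.81 in lung (1.95 to 3.78) and 5.59 in brain (3.80 to 6.70), so that its level was lowest in lung and its liver and brain ranges overlapped.

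All 9 tested genes were called higher in wild-type liver than brain, beside 87.3% of all genes called in either direction and 41.8% called higher, and the median difference of the 9 was 4.32 on the log2 scale, against -0.08 over all genes. The difference of Il18 was the smallest (log2 0.38, adjusted p = 0.0339) and was not called by DESeq2 (adjusted p = 0.0915), in a fit of only the libraries compared (0.0629) or in 5 of 16 fits that left out 1 library (0.166 without wild-type liver replicate 1 of the Y130A litters). Between lung and brain, all 9 were called as well, beside 84% of all genes (41.3% higher and 42.8% lower), with Il18 lower in lung (log2 -0.95, adjusted p = 8.3e-06) and the other 8 higher. Between liver and lung, 8 of 9 were called, beside 80.1% of all genes, and all 8 were higher in liver, as were 37.8% of all genes. Pycard was not, at 9.03 to 15.7 CPM in liver and 7.81 to 12.8 in lung. Il1b was the weakest of the 8 with an adjusted p of 0.0475, and lost the call with the embryo as replicate block (0.551), with DESeq2 (0.0613), in a fit of only the libraries compared (0.144), without the 2 squamous liver libraries (0.209) and in 8 of 15 fits that left out 1 library (at most 0.215, without wild-type liver replicate 2 of the S226A litters). These shares of all genes are so high that the calls say little of the 9 genes apart from their direction and size.

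**Figure D1:**
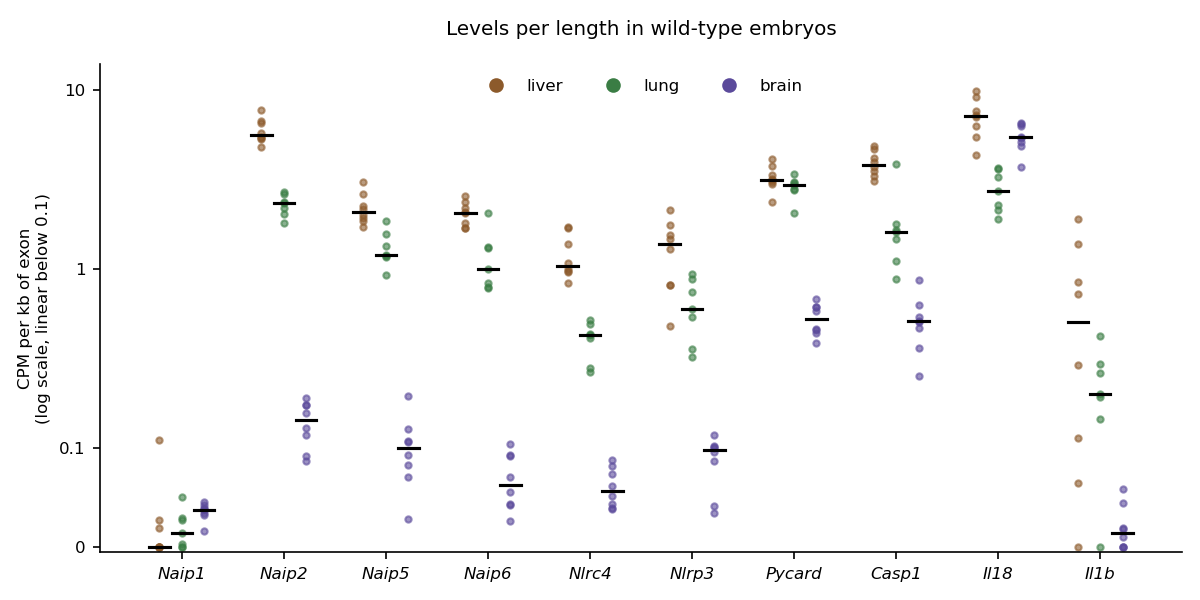
Levels of the 10 genes in wild-type embryos as CPM per kb of exon (vertical axis, log scale that is linear below 0.1) for liver (8 libraries), lung (7) and brain (8). Points are libraries and bars are medians. The lowest brain library had 3.69 CPM per kb of Il18, whereas the median of every other gene in brain was at most 0.522.

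Levels of different genes were compared per kb of exon. In liver the order of medians was Il18 (7.17 CPM per kb), Naip2 (5.61), Casp1 (3.81), Pycard (3.16), Naip5 (2.08), Naip6 (2.06), Nlrp3 (1.38), Nlrc4 (1.04), Il1b (0.506) and Naip1 (0), and the ranges of neighbours in this order overlapped throughout. In lung, Pycard (2.95) and Il18 (2.73) came first and Naip2 was the highest sensor at 2.33, again with all neighbours overlapping. In brain, Il18 (5.42) stood clear of Pycard (0.522), the next gene, and Casp1 (0.509) stood clear of Naip2 (0.143), while the other neighbours overlapped. Naip2 thus led the Naip genes in liver, where it held 41.0% to 59.2% of their reads in the wild-type libraries of the S226A litters. Naip1 had no read in 5 of 8 wild-type livers, while each brain library held at least 2 reads of it and in wild-type brain its median, 0.0379 CPM per kb, was the highest of its 3 tissue medians.

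**Figure D2:**
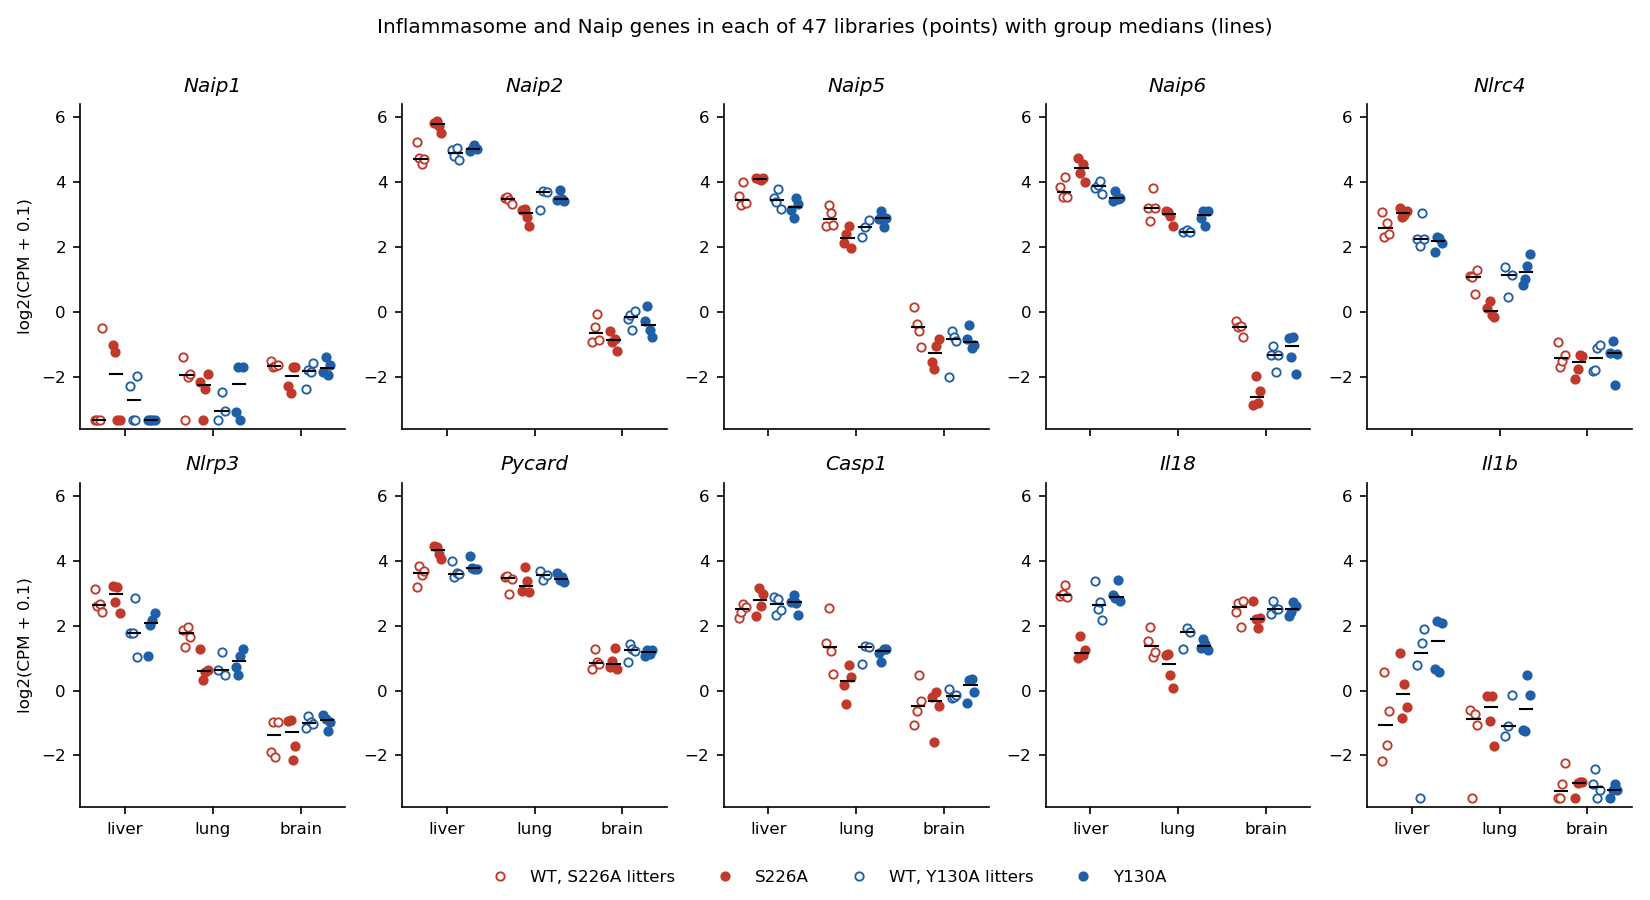
Level of each of the 10 genes in every library on the log2(CPM + 0.1) scale (vertical axis), by tissue (horizontal axis) and genotype, with wild-type littermates as open points, mutants as filled points and group medians as lines. S226A stands apart from its littermates for Naip2 (45.5 to 58.0 against 23.3 to 37.5 CPM) and Il18 (1.91 to 3.09 against 7.29 to 9.41) in liver and for Naip6 in brain (0.0350 to 0.156 against 0.481 to 0.715).

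Il18 showed the largest change of the 9 genes in S226A liver, where it was downregulated 3.41-fold. The wild-type littermates had 7.49, 7.82, 9.41 and 7.29 CPM and the S226A livers 1.91, 3.09, 2.04 and 2.26 CPM, so that every mutant lay below every wild-type library. The mean was 8.01 ± 0.964 CPM in wild type and 2.33 ± 0.532 in S226A (SD, n = 4 each). The log2 fold change was -1.77 (SE 0.26, adjusted p = 2.77e-06). Il18 also passed the stringent criterion (adjusted p below 0.01, log2 fold change beyond 1, SE below 1), as 2.1% of all tested genes did, and it was the only one of the 9 to do so in this tissue. Its call held in 8 of 8 fits that left out 1 library and without the 2 squamous libraries (adjusted p = 1.37e-05). In Y130A liver it had 7.96 ± 1.73 CPM, and in its littermates 6.70 ± 2.49.

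Il1b, the gene of the other cytokine that caspase-1 matures, had few reads in the S226A litters. It had 2 to 21 reads in the wild-type livers (0.123 to 1.38 CPM) and 9 to 32 in the S226A livers (0.462 to 2.11 CPM), and the groups overlapped (log2 fold change 0.88, SE 0.85, adjusted p = 0.586). Without the 2 squamous libraries the log2 fold change was 1.79 (adjusted p = 0.251). In brain it had at most 5 reads per library, and no fold change is given there. Livers of the Y130A litters had 39 to 129 reads in Y130A (1.38 to 4.36 CPM) and 61, 0, 76 and 120 in the wild types (0 to 3.64 CPM), with overlap (log2 fold change 0.52, SE 0.76, adjusted p = 0.95).

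Of the sensors, Naip2 was upregulated 1.88-fold in S226A liver. The 4 wild-type livers had 37.5, 26.4, 23.3 and 26.0 CPM and the 4 S226A livers 56.0, 58.0, 53.0 and 45.5 CPM. No library overlapped, and Naip2 was higher in the mutant in 4 of 4 pairs of littermates. Means were 28.3 ± 6.27 and 53.1 ± 5.48 CPM (log2 fold change 0.91, SE 0.16, adjusted p = 5.26e-05), and the call held in 8 of 8 fits without 1 library.

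Naip6 was upregulated 1.56-fold in S226A liver with less certainty. It had 14.2, 11.5, 17.5 and 11.5 CPM in wild type and 26.8, 19.4, 23.4 and 15.9 CPM in S226A, where the lowest mutant library lay below the highest wild-type one. It was higher in the mutant in 4 of 4 pairs of littermates (log2 fold change 0.64, SE 0.20, adjusted p = 0.032). The call held in only 3 of 8 fits that left out 1 library. It was lost without wild-type replicate 1 (adjusted p = 0.0519), 2 (0.0942) or 4 (0.097), without S226A replicate 1 (0.135) or 3 (0.083), and without the 2 squamous libraries (0.0922).

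The other sensors and their partner were not called in S226A liver. Naip5, whose product is known to recognize flagellin together with that of Naip6, had 9.59 to 16.0 CPM in wild type and 16.5 to 17.4 CPM in S226A. These ranges did not overlap, but the log2 fold change of 0.52 (SE 0.23) did not pass the test (adjusted p = 0.147). Nlrc4, which joins the NAIP proteins to caspase-1, had 4.80 to 8.29 CPM in wild type and 7.39 to 9.15 in S226A (adjusted p = 0.432). Nlrp3 had 5.21 to 8.66 and 5.17 to 9.22 CPM (adjusted p = 0.786). Naip1 had 10 reads in 1 wild-type liver and 0 in the other 3, and 6, 7, 0 and 0 reads in S226A. The reads of the 4 Naip genes summed to 47.5 to 63.3 CPM in wild type and 78.8 to 100.3 CPM in S226A, a log2 fold change of 0.76 (SE 0.14) for the sum.

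**Figure D3:**
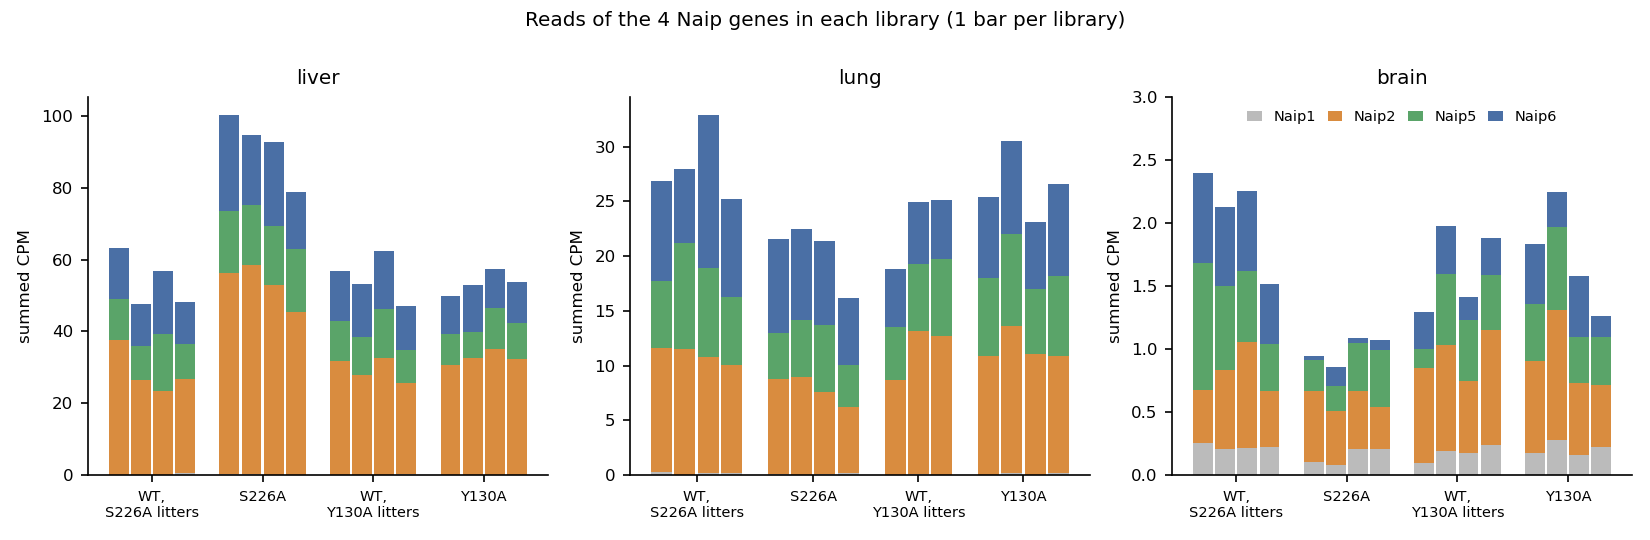
Summed CPM (vertical axis, from 0) of the 4 Naip genes in each library, with 1 bar per library and 1 colour per gene, in liver, lung and brain. In liver the S226A bars reach 78.8 to 100.3 CPM against 47.5 to 63.3 in their wild-type littermates, and in brain 0.859 to 1.09 CPM against 1.52 to 2.40, with little of Naip6.

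Pycard, which encodes the adaptor that links sensors to caspase-1, was upregulated 1.64-fold in S226A liver. It had 9.03, 14.3, 11.6 and 12.7 CPM in the wild-type livers and 21.8, 21.4, 18.4 and 16.6 CPM in the S226A livers. The groups did not overlap (means 11.9 ± 2.23 and 19.6 ± 2.49 CPM, log2 fold change 0.71, SE 0.17, adjusted p = 0.00284), and the call held in 8 of 8 fits without 1 library. Casp1 had 4.61 to 6.25 CPM in wild type and 4.81 to 8.78 in S226A, and was not called (log2 fold change 0.31, adjusted p = 0.612).

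Of the 9 tested genes, 4 were called in S226A liver, beside 11.7% of all tested genes (1972 of 16892): 3 were higher, as were 6.14% of all genes, and 1 was lower, as were 5.54%. The median log2 fold change of the 9 was 0.53, against -0.01 over all genes. The count was 3 without the 2 squamous libraries, where Naip6 was lost.

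**Figure D4:**
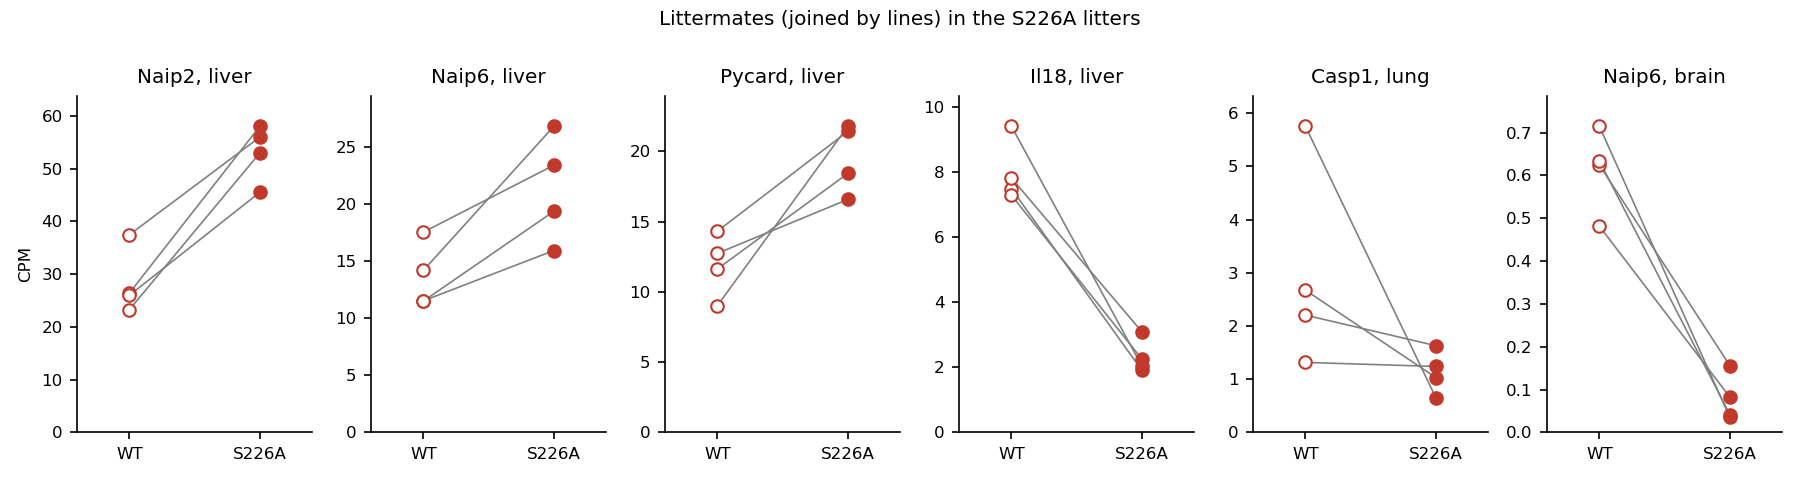
CPM (vertical axis, from 0) of the genes called in an S226A comparison, in wild-type and S226A embryos of the 4 S226A litters, with lines joining littermates. Naip2, Naip6 and Pycard were higher and Il18 was lower in 4 of 4 mutant livers than in their littermates, Casp1 was lower in 4 of 4 lungs and Naip6 in 4 of 4 brains.

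Cell type markers of S226A liver moved alongside these values. Of 10 genes that mark resident macrophages, 9 were downregulated, and their sum was 229 to 352 CPM in S226A against 823 to 990 in wild type. Vsig4, a receptor of liver macrophages, had no read in any S226A liver. Of 10 neutrophil markers, 9 were upregulated, with a sum of 7812 to 8566 against 2733 to 3376 CPM, and so were 5 of 5 markers of granulocyte precursors (1212 to 1643 against 493 to 568) and 4 of 5 of monocytes (751 to 1077 against 245 to 349). Of 5 B lineage markers, 2 were downregulated (31.2 to 68.6 against 72.3 to 88.5). Of 5 hepatocyte markers 0 were called, and their sum was 140465 to 163360 against 167004 to 170916 CPM. The sums of macrophage, neutrophil, granulocyte precursor, monocyte, B lineage and hepatocyte markers did not overlap between S226A and wild-type livers. Among the genes followed here, Il18, Naip2, Pycard and the uncalled Naip5 did not overlap either. The share of all genes without overlap is not given here. The part of these cells in the changes of Il18, Naip2, Naip6 and Pycard was not tested.

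In S226A lung the only call was Casp1, downregulated 2.63-fold. The wild-type lungs had 2.67, 5.75, 2.20 and 1.31 CPM and the S226A lungs 1.03, 0.652, 1.63 and 1.24 CPM. The groups overlapped, wild-type replicate 2 stood above all others, and Casp1 was lower in the mutant in 4 of 4 pairs of littermates (log2 fold change -1.40, SE 0.35, adjusted p = 0.0235). Without that library the log2 fold change was -0.86 (adjusted p = 0.101), and the call was lost as well without S226A replicate 1 (0.0613), 2 (0.136) or 4 (0.0548), with litter as replicate block (0.0694) and in a fit of only these 8 libraries (0.685).

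The sensors had lower values in S226A lung without passing the test. Nlrc4 had 2.06, 1.98, 1.35 and 2.36 CPM in wild type and 0.990, 1.17, 0.838 and 0.785 CPM in S226A, with no overlap (log2 fold change -1.03, SE 0.32, adjusted p = 0.0771). DESeq2 called it (adjusted p = 0.0369). Nlrp3 had 2.43 to 3.81 CPM in wild type and 1.17 to 2.35 in S226A, again without overlap (log2 fold change -1.01, SE 0.34, adjusted p = 0.121), and it was called with litter as replicate block (0.0375) and without wild-type replicate 2 (0.0486). Naip2 did not overlap either (9.86 to 11.5 against 6.07 to 8.95 CPM, adjusted p = 0.123). Naip5 (log2 fold change -0.65, adjusted p = 0.151) and Naip6 (-0.34, 0.434) overlapped.

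Pycard had 7.81 to 11.5 CPM in wild-type lung and 8.10 to 13.9 in S226A lung (log2 fold change -0.02, SE 0.17). Il18 had 1.95 to 3.78 CPM in wild type and 0.950 to 2.10 in S226A (log2 fold change -0.76, adjusted p = 0.129), and Il1b had at most 19 reads per library. Thus 1 of 9 genes was called, beside 1.88% of all tested genes (1.02% lower), and the median log2 fold change of the 9 was -0.65, against 0.00 over all genes. Markers moved here too: of 10 macrophage markers 3 were downregulated and 2 upregulated (sum 136 to 160 CPM in S226A against 178 to 207), of 7 microglia markers 2 were downregulated (63.3 to 72.4 against 82.0 to 103.7), and of 10 neutrophil markers 7 were upregulated (155 to 206 against 40.4 to 84.4). Of 5 monocyte markers 2 were upregulated and 1 downregulated, and their sums overlapped (96.3 to 121 CPM in S226A against 84.5 to 139). The part of these cells in the values of Casp1 was not tested.

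In S226A brain Naip6 fell to a few reads. The wild-type brains had 17, 15, 18 and 13 reads and the S226A brains 1, 4, 1 and 2 reads, at library totals of 20318413 to 25051861. In CPM, this was 0.715, 0.624, 0.634 and 0.481 against 0.0350, 0.156, 0.0418 and 0.0826, without overlap. The pooled rate of reads in S226A was 12.8% of that in wild type (exact 95% interval 5.30% to 26.8%, for counting error only). The fitted log2 fold change was -2.91 (SE 0.43, adjusted p = 7.27e-05), the call held in 8 of 8 fits without 1 library, and it met the stringent criterion, as 0.124% of all tested genes did. The wild-type brains of the Y130A litters had 0.178 to 0.378 CPM of Naip6, below every wild-type brain of the S226A litters and above every S226A brain. Their mean was 0.286 ± 0.0821 CPM, against 0.613 ± 0.0970 in the wild types and 0.0789 ± 0.0556 in the mutants of the S226A litters. The Y130A brains had 0.163 to 0.483 CPM.

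The other Naip genes in brain were not called. Naip5 had 24, 16, 16 and 10 reads in wild type and 7, 5, 9 and 11 in S226A (log2 fold change -1.03, SE 0.36, adjusted p = 0.92), and Naip2 had 10 to 24 and 8 to 16 reads (log2 fold change -0.39). Naip1 had 5 or 6 reads in each wild-type and 2 to 5 in each S226A brain. Naip6 made up 28.1% to 31.7% of the reads of the 4 Naip genes in the wild-type brains of these litters and 3.70% to 18.2% in the S226A brains. For the sum of the 4 genes the log2 fold change was -1.06 (SE 0.20). Naip6 reads in liver did not fall in the same embryos, where they numbered 240 to 419 in S226A.

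Nlrc4 (4 to 10 reads per brain library of the S226A litters), Nlrp3 (3 to 12) and Casp1 (6 to 37) had few reads in brain and no call. Il18, the most abundant of the 10 in brain, had 3.80 to 6.63 CPM in wild type and 3.68 to 6.65 in S226A (log2 fold change -0.19, SE 0.24), and Pycard had 1.47 to 2.33 and 1.49 to 2.38 CPM (log2 fold change 0.00, SE 0.20). The 1 call of 9 compares with 0.243% of all tested genes called and 0.184% called lower. Of 7 microglia markers, 4 were downregulated in S226A brain (sum 36.7 to 40.3 CPM against 65.2 to 76.6), and of 10 macrophage markers 3 were downregulated and 1 upregulated (23.4 to 31.0 against 52.5 to 55.8). Of 10 neutrophil markers, 2 were upregulated, S100a8 (log2 fold change 2.37) and S100a9 (1.64), and the sum of the 10 did not overlap (15.6 to 22.4 against 10.6 to 12.9). The part of these cells in the fall of Naip6 was not tested.

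**Figure D5:**
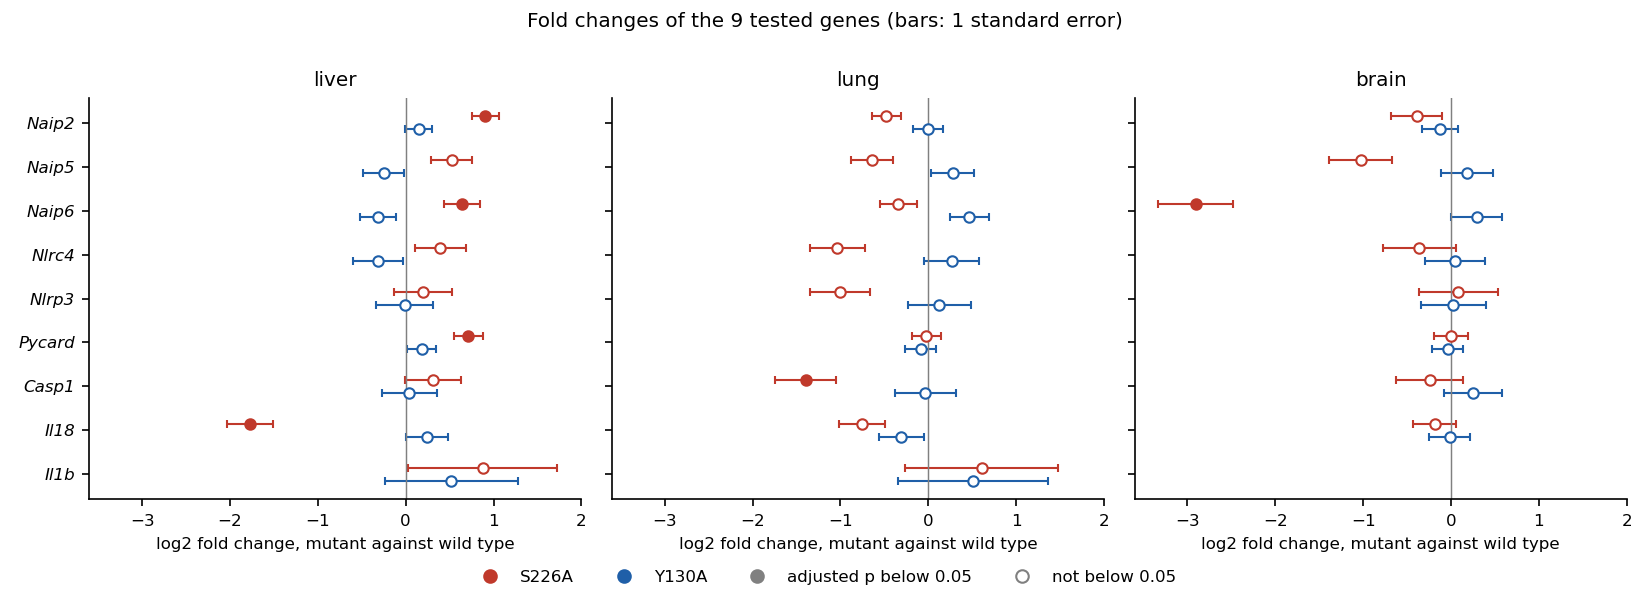
Log2 fold changes (horizontal axis) of the 9 tested genes in S226A and Y130A against wild-type littermates in each tissue, with bars of 1 standard error and filled points for an adjusted p below 0.05. Naip2, Naip6, Pycard and Il18 in S226A liver, Casp1 in S226A lung and Naip6 in S226A brain are filled, and no Y130A point is. Il1b is not drawn in brain.

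In Y130A embryos, 0 of 9 genes were called in liver, lung or brain by edgeR, beside 0.272%, 0.0178% and 0.00592% of all tested genes, and DESeq2 called 0 too. At an unadjusted p below 0.05, edgeR gave 1 gene in lung, where 2.92% of all tested genes passed, and 0 in liver (9.22% of all) and brain (2.22%). It was Naip6, with 6.11 to 8.49 CPM in Y130A lung and 5.35 to 5.68 in its littermates (log2 fold change 0.47, SE 0.22, adjusted p = 1). The log2 fold changes of the Naip genes, Nlrc4, Nlrp3, Pycard, Casp1 and Il18 lay between -0.32 and 0.47 in the 3 tissues. In Y130A liver, Naip2 had 30.5 to 35.1 CPM against 25.6 to 32.7, Pycard 13.3 to 17.6 against 11.3 to 15.7, and Il18 6.65 to 10.5 against 4.45 to 10.2, each with overlap. Macrophage markers there summed to 891 to 985 CPM, against 974 to 1125 in the littermates. Monocyte markers summed to 338 to 350 CPM against 262 to 318, without overlap, and 0 of the 5 were called.

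The effects of the 2 alleles were then compared as the difference of their log2 fold changes, each against its own littermates. In liver this difference was called for Il18 (-2.02, SE 0.35, adjusted p = 0.000156), Naip2 (0.76, SE 0.22, adjusted p = 0.0286) and Naip6 (0.96, SE 0.29, adjusted p = 0.0354), 3 of 9 genes beside 5.9% of all tested genes (3.19% higher and 2.71% lower). Il18 was called in 16 of 16 fits that left out 1 library, Naip2 in 8 (adjusted p = 0.0699 when replicate 3 of the S226A-litter wild types was left out) and Naip6 in 7 (0.0966 without S226A replicate 1). Pycard, called in S226A liver, was not shown to differ from its change in Y130A (0.53, SE 0.23, adjusted p = 0.203). Without the 2 squamous libraries only Il18 was called (adjusted p = 0.000472), while Naip2 (0.70, adjusted p = 0.0865) and Naip6 (0.85, adjusted p = 0.114) were not, with differences near those of all libraries. In brain the difference was called for Naip6 (-3.20, SE 0.53, adjusted p = 0.00177), beside 0.0829% of all genes (0.077% lower), but not in a fit of only the brain libraries (0.0903). In lung 0 of 9 were called by edgeR, beside 0.308% of all genes, and 0 by DESeq2, while 5 had an unadjusted p below 0.05 in edgeR (Naip5, Naip6, Nlrc4, Nlrp3 and Casp1), as had 9.8% of all tested genes. For Casp1 the difference was -1.36 (SE 0.49, adjusted p = 0.308).

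The S226A effect was also compared between tissues, whose libraries come from the same embryos apart from 1 wild-type lung. Between liver and brain it differed for Naip6 (3.55, SE 0.48, adjusted p = 2.84e-06), Il18 (-1.58, SE 0.35, adjusted p = 0.00386), Naip2 (1.30, SE 0.33, adjusted p = 0.0148) and Naip5 (1.55, SE 0.43, adjusted p = 0.0276), 4 of 9 genes beside 3.71% of all (2.44% higher and 1.26% lower). Naip5 was thus called for the difference although neither tissue alone gave a call, with log2 fold changes of 0.52 in liver and -1.03 in brain. Its adjusted p was 0.051 without the 2 squamous libraries, and it was called in 12 of 16 fits that left out 1 library (0.122 without wild-type brain replicate 1). Naip2 was called in 15 of 16 (0.104 without wild-type brain replicate 3), and Naip6 and Il18 in all 16.

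Between liver and lung, which share the liver libraries with the comparison above, the S226A effect differed for 5 of 9 genes beside 6.9% of all (4.11% higher): Naip2 (1.39, adjusted p = 4.02e-05), Naip5 (1.17, 0.0235), Naip6 (0.98, 0.0309), Nlrc4 (1.43, 0.0334) and Casp1 (1.71, 0.0192). With the embryo as replicate block only 2 of them, Naip2 (0.000139) and Casp1 (0.0218), were called, without the 2 squamous libraries Naip6 (0.0616) and Nlrc4 (0.0617) were not, and in a fit of only the libraries compared Naip6 (0.129) and Casp1 (0.123) were not. With 1 library left out, Naip2 was called in 16 of 16 fits, Naip5 and Casp1 in 14 each, and Naip6 and Nlrc4 in 10 each. For Casp1 the highest adjusted p was 0.0859, without wild-type lung replicate 2. Pycard was just short of the threshold (0.74, SE 0.24, adjusted p = 0.0506). It was called by DESeq2 (0.0187), without the 2 squamous libraries (0.0271) and in 4 of 16 fits that left out 1 library, and not with the embryo as replicate block (0.0771) or in a fit of only the libraries compared (0.203). Between lung and brain, only Naip6 differed (2.57, SE 0.49, adjusted p = 0.0119), beside 0.124% of all genes (0.0592% higher), and its adjusted p was 0.056 without S226A brain replicate 1 and 0.0888 in a fit of only the libraries compared.

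Of the other genes of the pathway, in lists of sensors, caspases and pore formers, cytokine relatives and upstream regulators, edgeR made calls in S226A liver and in no other comparison of a mutant with its littermates. Among the differences between effects, S226A against Y130A in liver, where 5.9% of all tested genes were called, gave 1 lower call of 7 sensors, 1 higher and 1 lower of 9 caspases and pore formers, 2 higher and 1 lower of 8 cytokine relatives and 1 higher of 5 upstream regulators. The S226A effect in liver against brain (3.71% of all tested genes called) gave 1 higher call of 9 caspases and pore formers and 2 higher of 5 upstream regulators, and in liver against lung (6.9%) 1 higher of those 5. DESeq2 also called Irf8 in S226A brain, Gtf2h2, a neighbour of the Naip cluster, in S226A lung, and P2rx7 and Nlrp10 in Y130A liver, genes named here after their values were seen. In S226A liver, where 6.14% of all tested genes were higher and 5.54% lower, 2 of 7 other sensors were upregulated: Mefv, the gene of the sensor pyrin (4.47 ± 1.36 CPM in wild type, 16.6 ± 4.02 in S226A, log2 fold change 1.90, adjusted p = 0.00432), and Nlrp1a, a sensor gene that activates caspase-1 (1.64, 0.00784). Of 9 caspases, pore formers and partners, 2 were upregulated: Gsdme (1.36, adjusted p = 0.000332) and Gsdmd (0.43, 0.00376), the pore former that caspase-1 cleaves. The median log2 fold changes of these 2 lists were 0.08 and 0.04, against -0.01 over all genes, and the other 5 and 7 genes were not called.

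Around the cytokines, the S226A liver showed opposite directions for Il18rap and for Il18 itself. Il18rap, a subunit of the IL-18 receptor, was upregulated (24.9 ± 2.38 CPM in wild type, 59.6 ± 3.89 in S226A, log2 fold change 1.26, adjusted p = 1.97e-05). Il18bp, whose product binds and blocks IL-18, was downregulated together with Il18 (25.1 ± 4.57 and 16.7 ± 4.48 CPM, log2 fold change -0.59, adjusted p = 0.0135). Il1r2, the decoy receptor of IL-1, was upregulated (1.43, adjusted p = 0.00388), and the other 5 of this list of 8 were not called. Of 5 upstream receptors and regulators, Nfkb1 alone was called (0.39, adjusted p = 2.84e-06). Of all tested genes, 6.14% were called higher and 5.54% lower in S226A liver.

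Of 8 genes that neighbour the Naip cluster on chromosome 13, 2 were upregulated in S226A liver, beside 6.14% of all tested genes, Smn1 (0.55, adjusted p = 0.00826) and Cdk7 (0.30, adjusted p = 0.0266). In S226A brain, where edgeR called 0.243% of all tested genes, it called none of the 8, nor did DESeq2. None of them had an unadjusted p below 0.05 in edgeR there, beside 2.27% of all.

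The genes most like each of the 9 over the 47 libraries were found by Pearson correlation of log2(CPM + 1) after the mean of each tissue was subtracted. This is a description only, as many libraries come from the same embryos and depth differs between the S226A and the Y130A litters. The pattern of Il18 was closest to H2-Eb1 (r = 0.84), an antigen-presenting molecule, Axl (0.83), a receptor for dying cells, and Cd163 (0.81), a scavenger receptor of macrophages that is among the macrophage markers above. Naip2 was closest to Sh2d1b1 (0.83), Plcg2 (0.82) and Card9 (0.79). Naip6 was closest to Cd33 (0.77), Dock2 (0.74) and Ttc21a (0.72), Naip5 to Cd300lf (0.70), Klra2 (0.70) and Coro2a (0.69), and Nlrc4 to Osm (0.73), Pilra (0.73) and Coro2a (0.72). Pycard was closest to Plppr3 (0.77), Fam107b (0.77) and Capg (0.76), and Nlrp3 to Dmxl2 (0.74), Glt1d1 (0.73) and Trp53inp2 (0.73). For Casp1 the highest value was 0.68 (Pramef12, before Il17b and E230025N22Rik), and for Il1b it was 0.67 (Zfp711, before Gm5622 and Rnf212). Among the 9 genes themselves, Naip5 and Nlrc4 were the most alike (0.63) and Il18 and Naip6 the least (-0.46).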

How the data were processed

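RNA of liver, lung and brain was sequenced by the authors in 47 libraries. The deposited values are raw counts of reads per gene, which the authors made by alignment to GRCm38.p6 with STAR (version 2.6.0b) and gene counting by STAR on GENCODE M19. Per the labels' processing notes, FastQC 0.11.5 and Trim Galore 0.6.5 were used. Symbols, positions and exon lengths were taken from GENCODE M21 (20424 of 20456 genes matched), and promoters from RefSeq on GRCm38.p6.

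Counts were fitted with edgeR 4.0.16 (R 4.3.3) by the quasi-likelihood test in all 47 libraries, with 1 coefficient for each of 12 groups, TMM normalization and filterByExpr (minimum count 10, minimum total 15), and p-values were adjusted by the Benjamini-Hochberg method over 16892 genes. The SE is the log2 fold change divided by the root of F. CPM are counts per 1000000 reads of effective library size. Litters are named in the labels, and residuals of littermates in the same tissue had a median correlation of 0.212 (23 pairs), against -0.061 for embryos of different litters (69 pairs). Alternatives were DESeq2 1.42.0, RLE size factors, no filter, only the libraries compared, litter or embryo as replicate block, wild types of 1 set of litters, leaving out each library in turn, the 4 Naip genes summed, and, chosen after seeing the data, leaving out 2 liver libraries. Tested on simulated S226A liver counts of 16892 genes, edgeR called 86 of 100 genes changed 2-fold, 96 of 100 changed 4-fold and 8 others. The changed genes were drawn only from those above a minimum mean count in liver, and no litter effect was simulated. The rates therefore do not cover genes with few reads. Libraries of a group were checked for copies (lowest chi-square per degree of freedom 4.17). Coding sequences were aligned with MAFFT 7.526 and promoters with Biopython. The genes and lists were chosen with earlier results of these data known. Named were all 10 genes, at most 4 called genes of each other list per comparison, with called markers given as counts and Vsig4, S100a8 and S100a9 named after their values were seen, and the 3 genes most like each tested gene. Counts are of reads without molecular identifiers, and intervals cover counting error only. The p-values measure the spread between libraries within groups, pooled for each gene over the groups of all tissues. In the main fit, libraries of the same embryo or litter were treated as independent. Strand use and read length are not given in the sources used here, and transposable elements were not analysed here.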

Additional observations from a re-analysis of the deposited data

Results flagged for a closer look

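Dixon's ratio was examined for 109 pairs of a gene and a group of 4 libraries, of which chance alone is expected to pass about 1 in 20, and 5 passed. Pycard had 17.6 CPM in Y130A liver replicate 1, one of the 2 libraries with squamous transcripts, against 13.3 to 13.6 in the other 3. Nlrc4 had 8.14 CPM in wild-type liver replicate 3 of the Y130A litters, against 3.99 to 4.67 in the other 3. Naip2 had 13.4 CPM in Y130A lung replicate 2, against 10.6 to 11.1. The other 2 rest on few reads: Naip1 had 0.613 CPM in wild-type liver replicate 4 of the S226A litters, against 0 in the other 3, and Il1b had 0 in S226A brain replicate 1, against 0.0390 to 0.0418.

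The difference between the effects of S226A and Y130A passed its test for Naip2 (0.76 on the log2 scale), Naip6 (0.96) and Il18 (-2.02) in liver and for Naip6 (-3.20) in brain. The S226A effect differed between tissues by the same kind of test. Liver minus brain gave 1.30 for Naip2, 1.55 for Naip5, 3.55 for Naip6 and -1.58 for Il18, and lung minus brain gave 2.57 for Naip6. Liver minus lung gave 1.39 for Naip2, 1.17 for Naip5, 0.98 for Naip6, 1.43 for Nlrc4 and 1.71 for Casp1.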

How the results depend on the processing

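Called genes were counted in 15 comparisons, and 257 of 276 counts under other settings stayed within 1.5 times the reported one. In S226A lung the count was 1 as reported, 2 with DESeq2, 0 with only the libraries compared and 0 to 1 with 1 library left out. For S226A against Y130A in liver it was 3, 1 without the 2 squamous libraries and 1 to 3 with 1 library left out, and in brain it was 1 and 0 with only the libraries compared. For the S226A effect in lung against brain it was 1, 0 with only the libraries compared and 0 to 1 with 1 library left out. For liver against lung it was 5, 2 with the embryo as replicate block, 3 with only the libraries compared and 3 to 6 with 1 library left out. In the other comparisons the embryo or litter as replicate block changed no count by over 1.5 times, but it removed Casp1 and added Nlrp3 in S226A lung. Of 707 log2 fold changes of single genes under other settings in the mutant comparisons, 635 kept their direction and their side of the threshold, 12 were no longer called, 3 were newly called and 57 uncalled ones changed sign, and no called one was reversed. The cause of these changes was not tested, apart from the fewer libraries in a fit that leaves some out. Depth limits Naip1, Il1b in the S226A litters and in brain, and the brain values of genes with few reads, such as Naip6 and Nlrc4, where single reads weigh.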
